A study of Mus musculus with 3 samples.

Results

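The cholesterol and lipid synthesis genes described here are 32 genes chosen by name: enzymes of cholesterol synthesis, the proteins that sense sterols and control these enzymes, a sterol carrier, enzymes of fatty acid synthesis and desaturation, and a pair of sterol exporters. They were taken from 20145 mouse genes that could be named on the arrays through a RefSeq accession, and are followed across 3 sorted cell populations, culture against embryo. The 32 genes carried 44 probes. For 21 genes there was 1 probe, for 10 genes there were 2, and for Acaca there were 3. Those with 1 probe included Idi1, Sqle, Lss, Cyp51, Insig1, Scd1, Scd2, Abca1 and Abcg1. For them, agreement between probes could not be checked.

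Cholesterol is built from acetyl-CoA, first along the mevalonate steps to isoprenoid units, then through squalene and lanosterol to the finished sterol. When membrane sterol is low, Scap carries the SREBP transcription factors, encoded by Srebf1 and Srebf2, from the endoplasmic reticulum to the Golgi, where they are cut and released to switch on the synthesis genes, and the Insig proteins hold this complex back when sterol is plentiful. Once the blood-brain barrier has formed, cells of the brain make nearly all of their own cholesterol, and Abca1 and Abcg1, targets of the sterol-activated LXR receptors, pump the excess out.

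The study asked how near Lhx6-GFP+ cells made from mouse embryonic stem (ES) cells come to Lhx6+ cells of the medial ganglionic eminence (MGE), the part of the embryonic ventral forebrain where cortical interneurons are born. ES-GFP+ and ES-GFP- cells were sorted at day 12 from a single line of 129S4/SvJae background, labelled male. It was J14, which carries an Lhx6-GFP BAC, with a viral 692-mCherry enhancer reporter added. The paper calls lines of this kind J14-derived. MGE-GFP+ cells were sorted from fresh E12.5 MGE of CD1 mice with the Lhx6-GFP BAC and were labelled female. All 3 populations carry the BAC, in which Lhx6 regulatory sequence drives GFP. J14 aggregates were started at 5000 cells a well with 100 ng/ml Dkk-1, a Wnt inhibitor, in GMEM with 10% KSR, a serum replacement. The hedgehog agonist SAG was present at 6 nM from day 3, and from day 6 the aggregates were in DMEM/F12 with N2 supplement. In all 1920 aggregates from 20 plates of 96 wells were pooled and dissociated with a neural tissue enzyme kit in the presence of a Rock inhibitor, while the MGE was dissociated with trypsin. Culture, strain, labelled sex and dissociation therefore cannot be told apart in any comparison with the embryo.

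Each population was hybridised to 1 one-color Agilent array, and all 3 arrays shared 1 slide and 1 scan. No test, p-value or spread between samples can be given. Because RNA came from bulk sorted cells, fewer cells expressing a gene and less of its RNA per cell cannot be told apart. Levels are given as scaled intensity, on which 100 is the 75th percentile of all mouse probes on the same array. A gene's level is compared with itself between arrays and not with that of another gene. Sums over marker lists, and the genes named as leading them, describe array signal and not relative amounts of RNA. Repeat spots of the same probe within an array gave a 2 SD range of 1.32-fold for a difference between arrays, which covers spot-to-spot error only. All 44 probes were well above background on all 3 arrays, as were 90.6%, 80.3% and 77.1% of all 55681 mouse probes on the ES-GFP+, ES-GFP- and MGE-GFP+ arrays. The arrays also carried 106 control probes with no mouse target. Their 95th percentile was 50.4 for ES-GFP+, 24.7 for ES-GFP- and 26.4 for MGE-GFP+ cells, so signal with no mouse target read highest on the ES-GFP+ array. Nsdhl, Srebf1, Stard4, Scd1 and Abca1 lay within this control range on the ES-GFP+ array, and Stard4 and Scd1 also did so on that of MGE-GFP+ cells, whereas 0 of the 32 genes did on the ES-GFP- array.

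The sort marker followed its label. Lhx6 read 2980 in ES-GFP+, 482 in ES-GFP- and 5110 in MGE-GFP+ cells, so the ES-GFP- array still held some Lhx6 signal. The 8 MGE neuron markers (Lhx6, Lhx8, Nkx2-1, Sox6, Dlx1, Dlx2, Gad1 and Gad2), all above the control range everywhere, summed to 11700, 2830 and 19300 in that order.

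The promoters below are shown because the synthesis genes are the classic targets of SREBP, and because these 4 genes stand for the main roles: an early mevalonate enzyme, the sterol synthesis gene farthest from the embryo in ES-GFP- cells, the sterol sensor that was higher in culture, and a sterol exporter. Each window runs from 250 bases before to 50 bases after the RefSeq start, in GRCm38.p6, 5′ to 3′ on the gene's strand. Capitals mark matches, on either strand, to the sterol regulatory element TCACNCCAC, the CCAAT box CCAAT, the GC box GGGCGG and the E-box CACGTG, and 0 bases in these windows lay in 2 matches. The windows are Hmgcs1 at chr13:119690101-119690400 (+), Idi1 at chr13:8885356-8885655 (+), Insig1 at chr5:28071162-28071461 (+) and Abca1 at chr4:53159846-53160145 (-).
Hmgcs1: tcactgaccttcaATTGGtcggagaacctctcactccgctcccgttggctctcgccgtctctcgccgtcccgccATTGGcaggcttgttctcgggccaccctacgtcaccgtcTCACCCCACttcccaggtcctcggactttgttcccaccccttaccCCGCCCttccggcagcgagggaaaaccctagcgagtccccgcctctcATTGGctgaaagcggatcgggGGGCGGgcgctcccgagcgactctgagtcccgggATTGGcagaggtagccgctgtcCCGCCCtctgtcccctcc
Idi1: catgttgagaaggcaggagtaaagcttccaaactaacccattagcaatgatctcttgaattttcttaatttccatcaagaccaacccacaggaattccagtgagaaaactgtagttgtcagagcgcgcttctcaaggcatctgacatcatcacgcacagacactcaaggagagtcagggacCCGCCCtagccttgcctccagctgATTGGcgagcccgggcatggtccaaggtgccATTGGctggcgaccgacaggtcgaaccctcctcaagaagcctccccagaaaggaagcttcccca
Insig1: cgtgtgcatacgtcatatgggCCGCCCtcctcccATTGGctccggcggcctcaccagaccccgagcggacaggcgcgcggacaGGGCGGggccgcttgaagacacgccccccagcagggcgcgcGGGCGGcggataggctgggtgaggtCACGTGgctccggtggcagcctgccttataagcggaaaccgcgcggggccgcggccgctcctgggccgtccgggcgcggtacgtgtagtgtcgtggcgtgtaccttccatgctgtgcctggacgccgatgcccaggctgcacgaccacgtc
Abca1: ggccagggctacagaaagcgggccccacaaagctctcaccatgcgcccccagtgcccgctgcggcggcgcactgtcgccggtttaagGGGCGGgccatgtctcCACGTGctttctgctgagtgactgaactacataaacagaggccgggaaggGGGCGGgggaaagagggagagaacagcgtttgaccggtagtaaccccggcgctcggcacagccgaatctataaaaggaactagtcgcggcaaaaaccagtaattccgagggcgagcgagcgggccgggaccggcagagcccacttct

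Hmgcs1 carried TCACCCCAC, starting at base 114 of its window. Of the 25 genes with a window of their own, it was the 1 gene with this element, against 1.44% of 27025 genes with a RefSeq window. The CCAAT box was in the windows of 20 of the 25 genes, 80.0%, against 41.1% of all genes. The GC box was in 21 of the 25, 84.0%, against 38.2%, and the E-box in 6 of the 25, 24.0%, against 8.09%. Abca1 had no CCAAT box in this window, whereas Hmgcs1 had 4, Idi1 had 2 and Insig1 had 1. A gene with several RefSeq starts had several windows, 33 in all for the 25 genes, and a match in any of them was counted. Sqle, Fdps, Fdft1, Scd1, Scd2, Stard4 and Abcg1 were not matched to a window.

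Culture and embryo were compared first over all 32 genes. In ES-GFP+ against MGE-GFP+ cells, 27 of the 32 genes were within 2-fold of each other, 3 were at least 2-fold higher in culture and 2 at least 2-fold lower, where 32.2% of all 18580 genes with a value were at least 2-fold higher and 5.48% at least 2-fold lower. Among the 10429 genes above the control range on either array, those shares were 9.16% and 8.79%, and 30 of the 32 genes qualified, 2 of them higher and 2 lower. The genes higher in ES-GFP+ cells were Insig1, Lss and Scd1, and those lower were Abca1 and Abcg1. The median log2 difference of the 32 genes was 0.18, beside 0.36 for all genes and -0.12 for all genes above the control range. Of the 5982 genes that were at least 2-fold higher among all genes, 955 were above the control range on either array. With the arrays scaled to their 50th percentile, which lowers all differences together, 0 of the 32 genes were at least 2-fold higher and 8 at least 2-fold lower.

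ES-GFP- cells set against the same MGE-GFP+ array also had 27 genes within 2-fold, with 3 at least 2-fold higher (Scd1, Insig1 and Stard4) and 2 at least 2-fold lower (Idi1 and Abcg1). The background was 17.2% of 17025 genes higher and 9.9% lower, and 15.2% and 11.8% among the genes above the control range. With the 50th percentile, 1 gene was higher and 7 were lower. The median of the 32 genes was -0.04, beside 0.06 for all genes and -0.06 for those above the control range. Both culture populations were compared with 1 and the same embryo array, so the differences they have in common also share that array's error, and the values are given side by side below. By the finer measure of 2 SD of repeat spots, 9 of the 32 genes were higher in ES-GFP+ than in MGE-GFP+ cells and 7 lower. The background over all genes, dim ones included, was 48.7% and 20.3%. Genes above the control range had quartiles of -0.55 and 0.34 there, beside a 2 SD limit of 0.40. Their share higher was therefore below 48.7% and their share lower above 20.3%. In ES-GFP- against MGE-GFP+ cells, 6 of the 32 genes were higher and 8 lower, with an all-gene background of 34.5% and 28.3%.

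**Figure D1:**
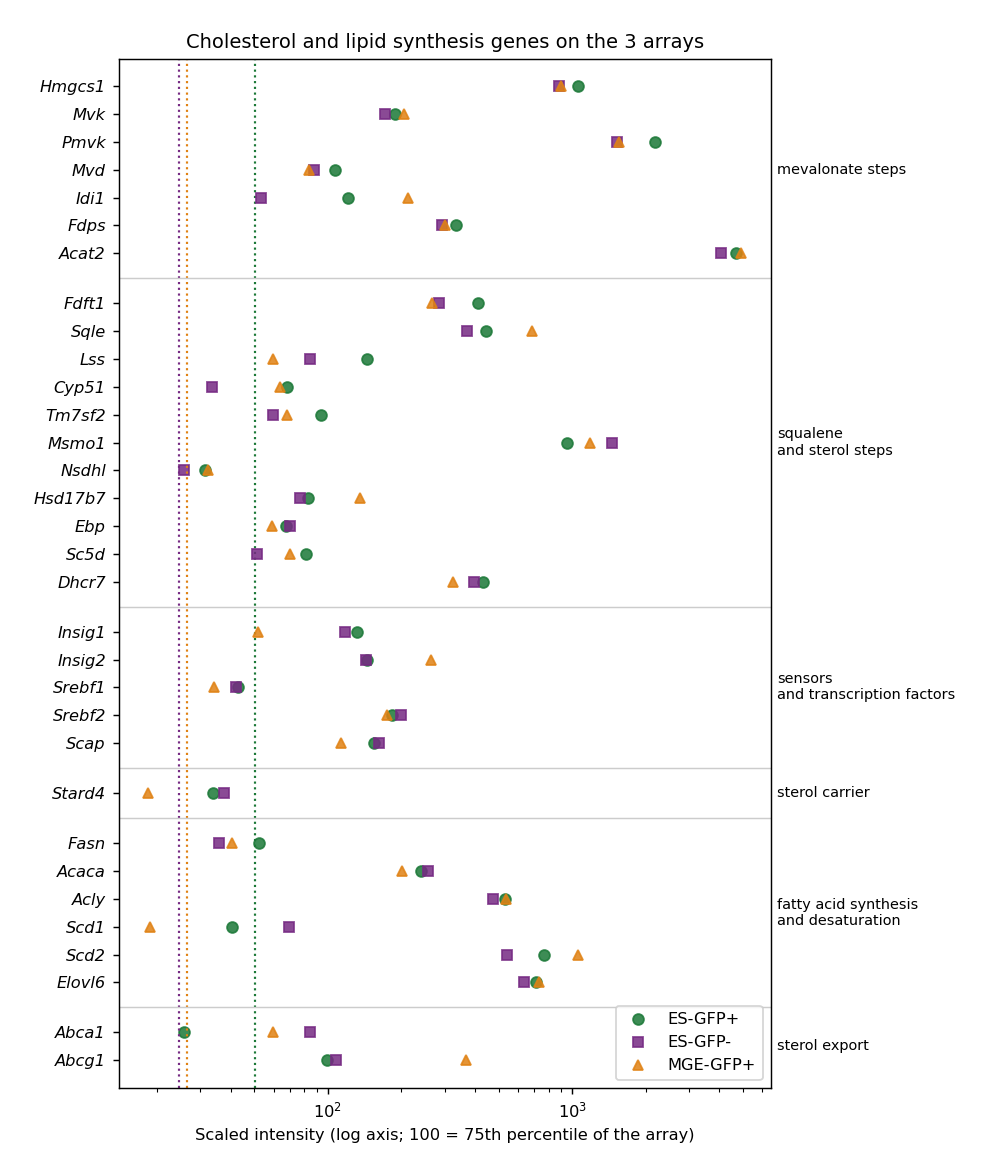
Scaled intensity (log axis, 100 = 75th percentile of the array) of the 32 genes by role, 1 point per array: ES-GFP+ (circles), ES-GFP- (squares) and MGE-GFP+ (triangles). Dotted lines mark the 95th percentile of the control probes on the array of the same color (50.4, 24.7 and 26.4). For most genes the 3 points lie close together, and the widest gaps are those of Idi1, Scd1, Abca1 and Abcg1.

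Along the mevalonate steps, Idi1 stood apart from the other 6 genes. Idi1, the isomerase that makes the reactive isoprenoid unit, read 121 in ES-GFP+, 53.3 in ES-GFP- and 213 in MGE-GFP+ cells. It was thus highest in the embryo and lowest in the GFP- cells of the culture. The log2 difference from the embryo was -0.81 in ES-GFP+ cells, 1.76-fold lower, and -2.0 in ES-GFP- cells, 4.0-fold lower. Across the 10 alternative settings these ranged from -1.56 to -0.66 and from -2.31 to -1.69, negative in all.

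The other mevalonate genes were near their embryonic level in ES-GFP- cells, with log2 differences between -0.28 and 0.07. Hmgcs1, which encodes the synthase that forms HMG-CoA, read 1060 in ES-GFP+, 885 in ES-GFP- and 895 in MGE-GFP+ cells. The ES-GFP- and MGE-GFP+ levels could not be told from each other at the repeat-spot spread. Pmvk, the kinase that adds a second phosphate to mevalonate, read 2180, 1520 and 1550 in the same order. Its log2 difference of 0.49 in ES-GFP+ against MGE-GFP+ cells passed 2 SD, but turned to -0.26 when arrays were scaled to their 50th percentile. Mvk, Mvd, Fdps and Acat2, which encode mevalonate kinase, the decarboxylase, farnesyl diphosphate synthase and a thiolase that makes acetoacetyl-CoA, differed from the embryo by log2 values between -0.28 and 0.35 in both culture populations, all within 2 SD.

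Among the 11 squalene and sterol genes, Lss was higher in culture and Sqle was lower, as was Hsd17b7 by the mean of probes that disagreed. Lss encodes lanosterol synthase, which folds the squalene chain into the first sterol. It read 144 in ES-GFP+, 84.2 in ES-GFP- and 59.4 in MGE-GFP+ cells. That is 2.43-fold higher in ES-GFP+ and 1.42-fold higher in ES-GFP- cells than in the embryo, with log2 differences of 1.28 and 0.50 that kept their sign under every alternative and shrank to 0.53 and 0.20 with the 50th percentile. Sqle, squalene epoxidase, the enzyme just before Lss, went the other way and read 445, 372 and 687. Its log2 differences of -0.63 and -0.89 were negative under every alternative. Neighbouring enzymes of the path therefore differed in opposite directions between culture and embryo.

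Cyp51 encodes lanosterol demethylase. It read 68.3 in ES-GFP+, 33.5 in ES-GFP- and 63.8 in MGE-GFP+ cells, so ES-GFP- cells alone were low. They lay 1.91-fold below the embryo (log2 difference -0.93, from -1.24 to -0.77 over the alternatives) and 2.04-fold below ES-GFP+ cells. Sc5d, a sterol desaturase late in the path, was also lowest in ES-GFP- cells, with 81.5, 51.2 and 70.3. The Sc5d log2 difference in ES-GFP- against MGE-GFP+ cells was -0.46. For both genes, ES-GFP+ and MGE-GFP+ cells were within 2 SD of each other, and the sign of that difference changed under some alternatives.

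Hsd17b7, a sterol ketone reductase, read 82.7, 76.9 and 135 in ES-GFP+, ES-GFP- and MGE-GFP+ cells, but its 2 probes disagreed. The log2 differences of ES-GFP+ and ES-GFP- cells from the embryo were -1.22 and -1.54 by one probe and -0.19 and -0.07 by the other. The lower Hsd17b7 level in culture thus rests on a single probe, and Idi1, Sqle, Lss, Cyp51 and Sc5d had 1 probe each. Fdft1, the squalene synthase that commits carbon to sterols, read 412, 285 and 266. Its log2 difference of 0.63 in ES-GFP+ against MGE-GFP+ cells turned to -0.12 with the 50th percentile.

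Msmo1, a sterol methyl oxidase, read 953 in ES-GFP+, 1450 in ES-GFP- and 1180 in MGE-GFP+ cells, highest where Cyp51 was lowest. Neither culture population passed 2 SD against the embryo, where the log2 differences were -0.30 and 0.30. Tm7sf2 and Dhcr7, both sterol reductases, had log2 differences of 0.46 and 0.41 in ES-GFP+ against MGE-GFP+ cells, just past 2 SD, and both turned negative with the 50th percentile, to -0.29 and -0.34. Nsdhl, a sterol dehydrogenase, and Ebp, a sterol isomerase, were within 2 SD of the embryo in both culture populations, and Nsdhl lay in the control range on the ES-GFP+ array. The median log2 difference of the 11 genes was 0.20 in ES-GFP+ and -0.19 in ES-GFP- cells.

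**Figure D2:**
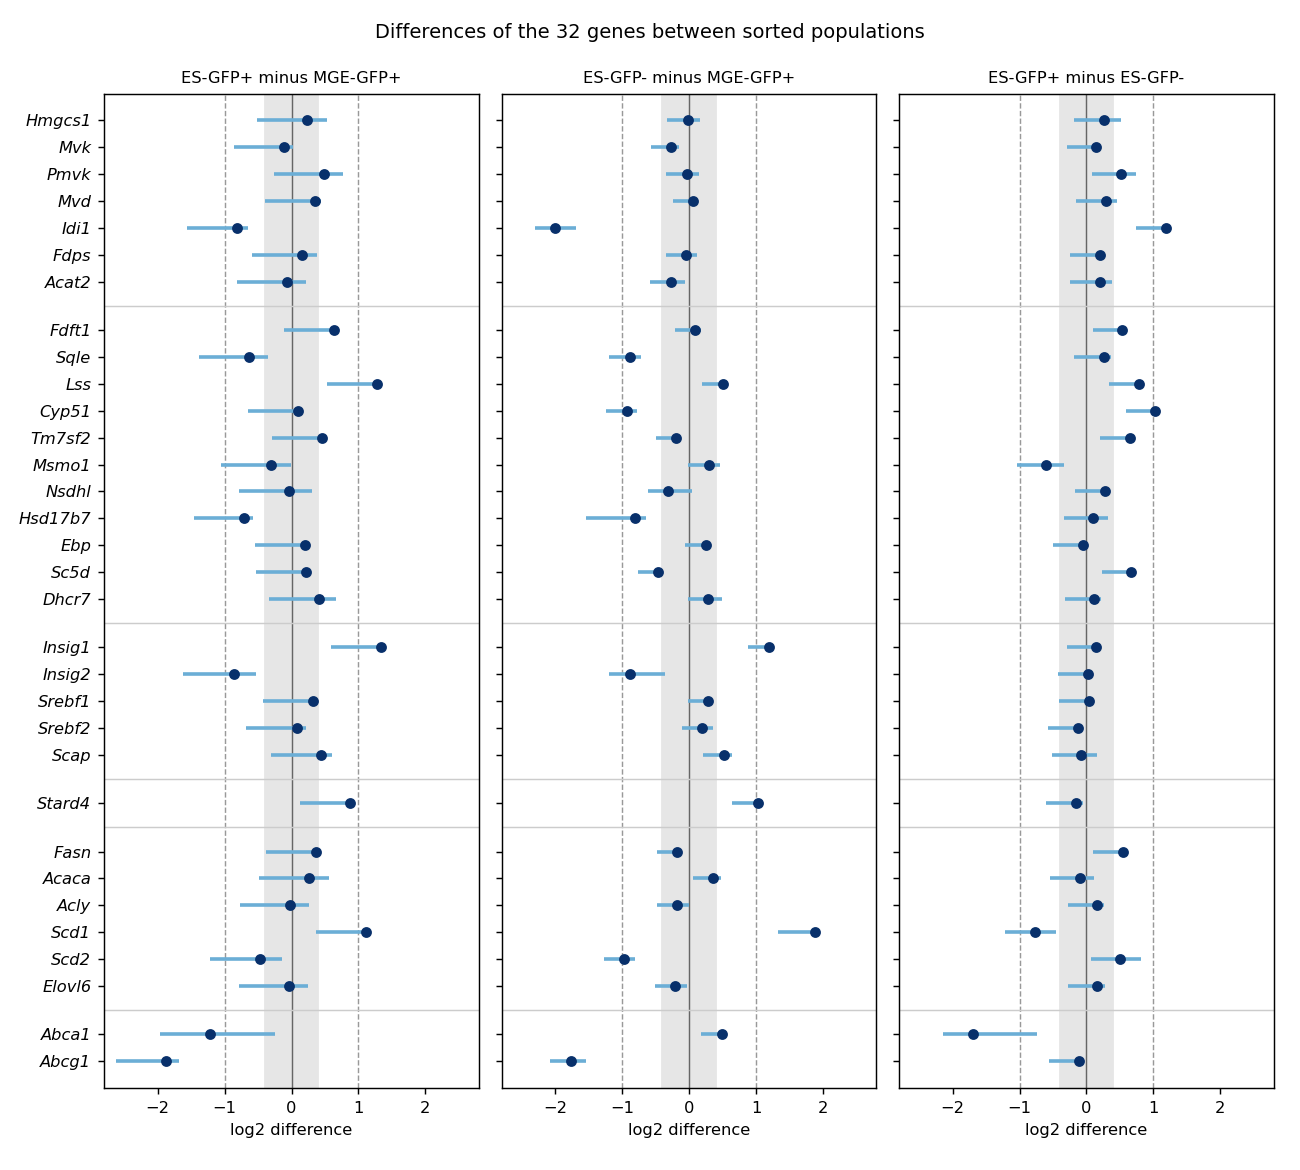
Log2 difference of each of the 32 genes in the 3 comparisons (points), in the order of the levels plot, with the range over the 10 alternative settings (blue lines). The grey band is 2 SD of repeat spots and dashed lines mark 2-fold. Idi1 and Abcg1 lie below zero over their whole range in both comparisons with the embryo and Insig1 above it, and Abca1 changes side between the ES-GFP+ and ES-GFP- comparisons.

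Of the sensors, Insig1 was higher and Insig2 lower in both culture populations. Insig1, which encodes the endoplasmic reticulum anchor that retains the Scap complex and is itself an SREBP target, read 131 in ES-GFP+, 118 in ES-GFP- and 51.7 in MGE-GFP+ cells. Both culture levels lay above the embryo, by 2.53-fold in ES-GFP+ and 2.28-fold in ES-GFP- cells, and did not differ from each other by more than the repeat-spot spread (log2 difference 0.14). The log2 differences of 1.34 and 1.19 stayed positive under every alternative, from 0.59 to 1.36 and from 0.89 to 1.26. Insig2, its relative with the same retaining role, read 145, 143 and 264. Its log2 differences were -0.86 and -0.89, and the 2 probes, which read different RefSeq transcripts, gave -1.20 and -1.42 against -0.53 and -0.35. Each Insig2 value was negative, so the probes differed in size and not in direction.

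Srebf2, the SREBP gene tied most closely to sterol synthesis, read 183 in ES-GFP+, 200 in ES-GFP- and 174 in MGE-GFP+ cells, with log2 differences of 0.07 and 0.20 from the embryo that fell within 2 SD. Srebf1, which leans toward fatty acid genes, differed by 0.32 and 0.29, also within 2 SD. Scap, the escort, read 154, 162 and 113. Its log2 difference of 0.52 in ES-GFP- against MGE-GFP+ cells passed 2 SD and stayed positive in every setting, whereas the 0.45 of ES-GFP+ cells turned to -0.30 with the 50th percentile. Stard4, a soluble carrier that moves sterol between membranes, read 33.8 in ES-GFP+, 37.7 in ES-GFP- and 18.4 in MGE-GFP+ cells. ES-GFP- cells were 2.05-fold above the embryo, but the embryo level was within the control range, as was that of ES-GFP+ cells.

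Taken as means over probes, the fatty acid synthesis enzymes were within the repeat-spot spread of the embryo, and the desaturases were not. Acly, Acaca, Fasn and Elovl6 encode the enzymes that make cytosolic acetyl-CoA, carboxylate it, build palmitate and lengthen it. Their log2 differences from the embryo lay between -0.20 and 0.37 in both culture populations, within 2 SD. Scd1, a desaturase that makes monounsaturated fatty acids, read 40.5 in ES-GFP+, 69.0 in ES-GFP- and 18.8 in MGE-GFP+ cells. The log2 difference of ES-GFP- cells was 1.88, from 1.32 to 1.88 over the alternatives, against an embryo level in the control range, and was 1.39 with levels raised to that range. The 2.16-fold difference of ES-GFP+ cells was between levels that were both in the control range. Scd2, the desaturase prominent in the embryonic brain, was the reverse and read 769, 541 and 1060. Its log2 differences of -0.47 and -0.97 were negative under every alternative, and ES-GFP- cells were 1.96-fold below the embryo. ES-GFP- cells were thus lower than the embryo for Scd2 and higher for Scd1.

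Of the sterol exporters, Abcg1 was low in both culture populations, and Abca1 stood on opposite sides of the embryo in them. Abcg1, which passes cholesterol to lipoprotein particles, read 99.6 in ES-GFP+, 108 in ES-GFP- and 367 in MGE-GFP+ cells. Both culture populations were low, by 3.68-fold and 3.40-fold, with log2 differences of -1.88 and -1.77 that stayed at or below -1.54 in every setting. Abca1, which loads cholesterol onto lipid-poor carriers, did not follow it. It read 25.9 in ES-GFP+, 84.1 in ES-GFP- and 59.9 in MGE-GFP+ cells, so that ES-GFP+ cells were 2.31-fold below and ES-GFP- cells 1.41-fold above the embryo. The ES-GFP+ level was within the control range of its array. With levels raised to the control range, the log2 difference of ES-GFP+ from MGE-GFP+ cells went from -1.21 to -0.25, and without background subtraction it was -0.92.

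Within the culture, the 2 populations came from the same aggregates and differed in GFP. Of the 32 genes, 29 were within 2-fold between ES-GFP+ and ES-GFP- cells, 2 were at least 2-fold higher in ES-GFP+ cells (background 24.0%) and 1 at least 2-fold lower (background 6.4%). Among all genes above the control range the background was 6.01% and 8.97%. With the 50th percentile, 0 genes were higher and 3 lower. Idi1 was 2.27-fold and Cyp51 2.04-fold higher in ES-GFP+ cells, and Abca1 was 3.25-fold lower. The ES-GFP+ level of Abca1 was in the control range, and with levels raised to that range its log2 difference went from -1.70 to -0.74, short of 2-fold. The Cyp51 difference, log2 1.03, fell to between 0.59 and 0.94 under 6 alternatives and remained positive. By 2 SD of repeat spots, 9 genes were higher and 3 lower in ES-GFP+ cells (background over all genes, dim ones included, 43.9% and 18.3%). Genes above the control range had quartiles of -0.41 and 0.38, beside a 2 SD limit of 0.397. Their share higher was therefore below 43.9% and their share lower above 18.3%. The 9 were Pmvk, Idi1, Fdft1, Lss, Cyp51, Tm7sf2, Sc5d, Fasn and Scd2, and 7 of these make sterol while Fasn and Scd2 make fatty acids. The 3 lower genes were Msmo1, Scd1 and Abca1, with log2 differences of -0.60, -0.77 and -1.70. All 12 differences kept their sign under every alternative. The median log2 difference of the 32 genes was 0.16, beside 0.27 for all genes and 0.01 for those above the control range.

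**Figure D3:**
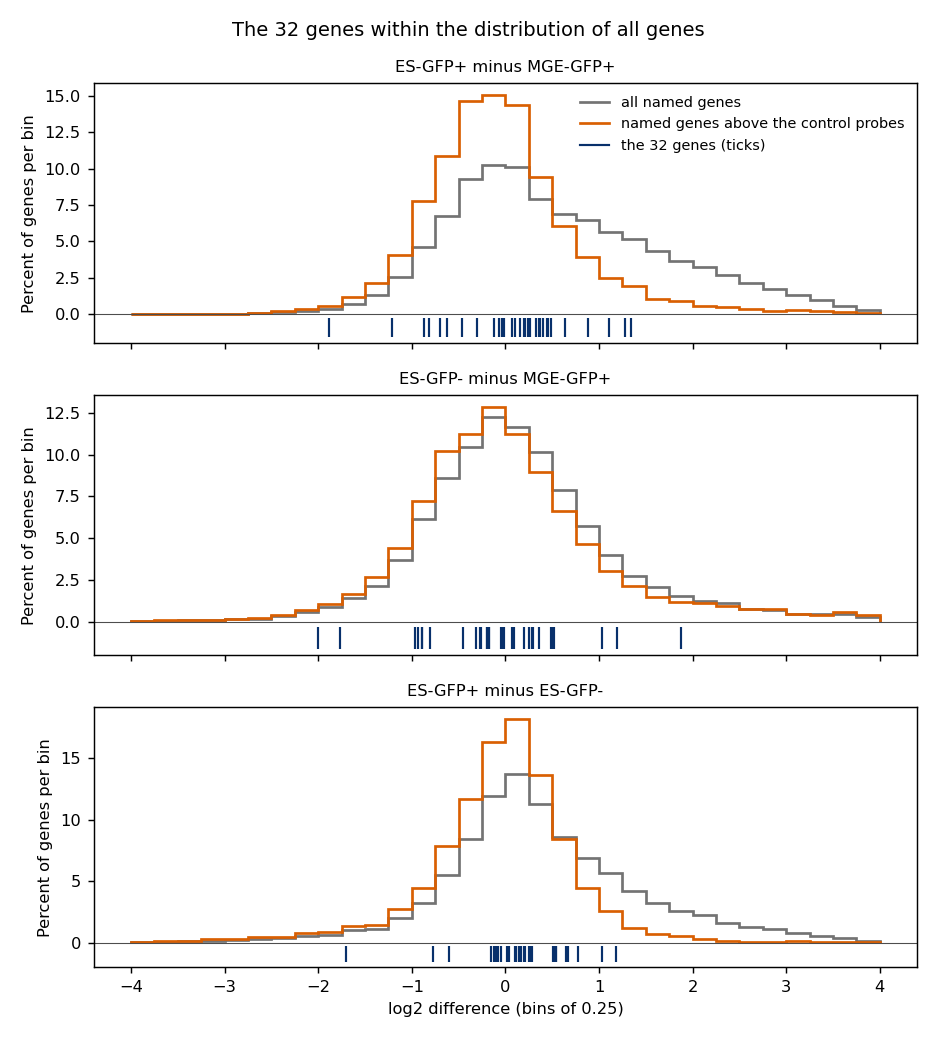
Percent of genes per 0.25-wide bin of log2 difference for all named genes (grey) and for those above the control range on either array (orange), with the 32 genes as ticks. The ticks cluster near zero in each comparison, with medians of 0.18, -0.04 and 0.16, while the grey outline of both ES-GFP+ comparisons has a long right shoulder that the orange outline lacks.

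At a threshold of 1.5-fold, 5 of the 32 genes were higher and 6 lower in ES-GFP+ than in MGE-GFP+ cells (background 43.2% and 14.3%), 3 higher and 7 lower in ES-GFP- than in MGE-GFP+ cells (27.8% and 21.6%), and 5 higher and 3 lower in ES-GFP+ than in ES-GFP- cells (36.2% and 13.1%). At 3-fold, Abcg1 alone was lower in ES-GFP+ than in MGE-GFP+ cells (background 1.29%) and 0 genes were higher (20.0%). Against the same embryo array, ES-GFP- cells had 1 higher gene, Scd1 (9.69%), which is no longer past 3-fold with levels raised to the control range, and 2 lower genes, Idi1 and Abcg1 (3.42%). Between the culture populations Abca1 was the 1 gene past 3-fold, lower in ES-GFP+ cells (3.02%), where its level was in the control range, and 0 were higher (12.9%). Abca1 too is no longer past 3-fold with levels raised to that range. The backgrounds in this paragraph are over all genes, dim ones included, and were not computed for genes above the control range alone.

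The middle of the 32 genes covered a narrower range of log2 differences than that of all genes. Between the lower and upper quartiles, the 30 genes above the control range on either array ran from -0.26 to 0.37 in ES-GFP+ against MGE-GFP+ cells, where all genes above it ran from -0.55 to 0.34. In ES-GFP- against MGE-GFP+ cells all 32 genes were above it on either array and ran from -0.35 to 0.29, beside -0.60 to 0.55 for all such genes. Between the culture populations the 32 genes ran from -0.06 to 0.51, beside -0.41 to 0.38.

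Other lipid genes, from lists of the surrounding pathways, were examined in the same way, with the backgrounds given above. By list, the 2 highest and 2 lowest genes of ES-GFP+ against MGE-GFP+ cells are described, and genes past 2-fold were named after their values were seen. The 12 genes of SREBP processing and sterol-regulated degradation had medians of -0.04 in ES-GFP+ and 0.16 in ES-GFP- against MGE-GFP+ cells, with 3 genes (Nr1h3, Mylip and Rxra) and 2 genes (Mylip and Rxra) at least 2-fold higher and 0 lower. The 3 in ES-GFP+ cells were within the control range on both arrays, as was Mylip in ES-GFP- cells, and the embryo level of Rxra was within it. Mbtps2, one of the proteases that release SREBP, read 37.6, 27.9 and 26.6 in ES-GFP+, ES-GFP- and MGE-GFP+ cells, within the control range on the ES-GFP+ array. Erlin1, which helps degrade sterol-regulated proteins, read 20.8, 22.5 and 32, both culture levels being in the control range, and Rnf139, a ubiquitin ligase of the same process, 62.8, 62.9 and 91.1. Nr1h2, the LXR subtype beta gene, read 154, 170 and 140. The log2 differences of Nr1h2 from the embryo, 0.14 and 0.28, were within 2 SD.

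The 15 genes of cholesterol uptake, transport and esterification had medians of 0.36 and 0.60, with 1 gene at least 2-fold higher and 0 lower in ES-GFP+ cells (Scarb1, in the control range on both arrays) and 4 higher (Scarb1, Lipa, Tmem97 and Abca7) and 1 lower (Lrp8) in ES-GFP- cells. The embryo levels of Scarb1, Tmem97 and Abca7 were in the control range. Soat1, which esterifies cholesterol for storage, read 23.0 in ES-GFP+, 70.8 in ES-GFP- and 41.2 in MGE-GFP+ cells, the order seen for Abca1, and like Abca1 was in the control range in ES-GFP+ cells. Stard3, a late endosomal sterol transporter, had that order too, with 69.7, 138 and 113. Lipa, the lysosomal lipase that frees cholesterol from esters, read 55.2, 98.2 and 33.0, and Osbp, a sterol exchange protein, 142, 94.8 and 79.4. The 12 genes of the non-sterol isoprenoid branch, which starts from the product of Fdps, had medians of -0.19 in both comparisons, with 0 genes at least 2-fold different in ES-GFP+ and 1, Nus1, lower in ES-GFP- cells. Ggps1, geranylgeranyl diphosphate synthase, read 307, 340 and 497, Pdss2, of ubiquinone synthesis, 23.5, 20.0 and 38.5 with both culture levels in the control range, and the protein prenylation genes Fnta and Rce1 238, 265 and 203 and 133, 135 and 118.

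The 22 other fatty acid and acyl-CoA genes had medians of -0.13 and 0.03, with 3 at least 2-fold higher (Fads3, Acacb and Lpin1) and 1 lower (Elovl2) in ES-GFP+ cells, and 5 higher (Fads3, Elovl1, Me1, Lpin1 and Acsbg1) and 1 lower (Elovl2) in ES-GFP- cells. Fads3 and Acacb in the first comparison, and Fads3 and Acsbg1 in the second, were within the control range on both arrays, and the embryo levels of Elovl1 and Me1 were within it. Elovl2, which lengthens polyunsaturated fatty acids, was low in both cultures and read 50.3, 50.7 and 143, 2.84-fold and 2.82-fold below the embryo, with the ES-GFP+ level at the edge of the control range. Hacd3, a dehydratase of fatty acid elongation, read 969, 1450 and 1880. Lpin1, a phosphatidate phosphatase, was high in both and read 57.2, 63.9 and 21.9, the embryo level being in the control range. Fads1, a polyunsaturated fatty acid desaturase, read 1230, 740 and 813, and its log2 difference of 0.59 in ES-GFP+ against MGE-GFP+ cells turned negative with the 50th percentile.

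Most fatty acid oxidation genes were higher in ES-GFP- cells than in the embryo. Of 14 genes, 8 were at least 2-fold higher and 0 lower in ES-GFP- than in MGE-GFP+ cells, where the background was 17.2% higher (15.2% among genes above the control range), and their median was 1.11 beside 0.06 for all genes. The 8 included Cpt1a, which lets fatty acids into the mitochondrion (68.1 in ES-GFP- against 11.8 in MGE-GFP+ cells), and Cpt2, its partner there (100.0 against 25.5). For 6 of the 8, Cpt1a and Cpt2 included, the embryo level was in the control range, the exceptions being Acadm and Acadvl, and for Decr1 the ES-GFP- level was too. In ES-GFP+ cells 2 were higher and 0 lower with a median of 0.62, but for 7 of the 14 both levels were in the control range. The 2 genes, Acadl and Hadh, were among these 7, and since neither was well above background in the embryo their differences are bounds. Acadm, the medium-chain acyl-CoA dehydrogenase, read 75.3, 121 and 41.4 in ES-GFP+, ES-GFP- and MGE-GFP+ cells, and Slc25a20, the carnitine carrier, 94.1, 91.3 and 60.4. Hadhb, of the mitochondrial trifunctional protein, read 62.3, 114 and 95.7.

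**Figure D4:**
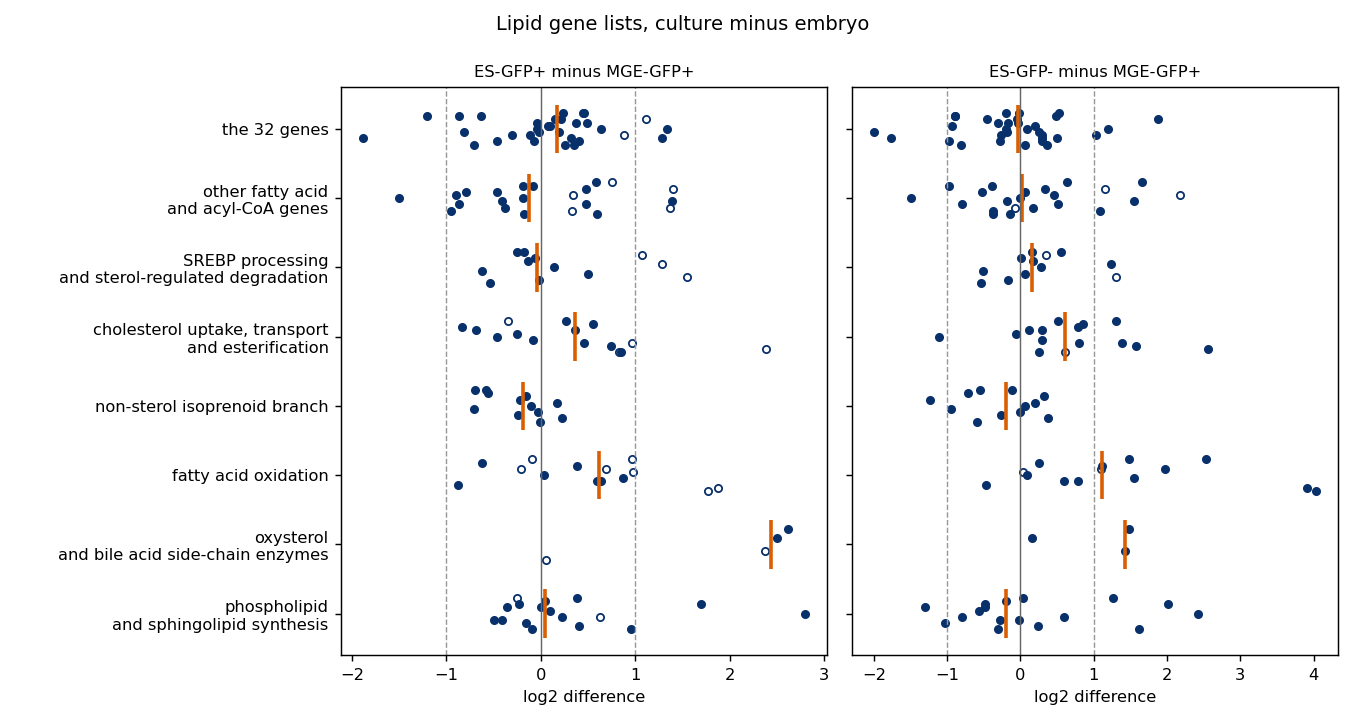
Log2 difference from MGE-GFP+ cells of the 32 genes and of 7 surrounding lipid gene lists in ES-GFP+ (left) and ES-GFP- cells (right), 1 point per gene. Open points lie in the control range on both arrays, orange bars are list medians and dashed lines mark 2-fold. The fatty acid oxidation median is 0.62 on the left and 1.11 on the right, while those of the 32 genes are 0.18 and -0.04.

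Markers of other cell types also differed between the arrays. The 7 radial glia markers (Slc1a3, Hes5, Sox2, Nes, Vim, Fabp7 and Sox9) summed to 1200 in ES-GFP+, 6070 in ES-GFP- and 1480 in MGE-GFP+ cells, the largest part of the summed signal being that of Hes5, Vim and Hes5. Of the 7, 6 were at least 2-fold higher in ES-GFP- than in MGE-GFP+ cells. The 5 cycling cell markers summed to 261, 866 and 571 (led by Pcna, Ccnb1 and Pcna), with 1, 5 and 4 of them above the control range. The 4 astroglial summed to 124, 410 and 41.9 (S100b, Aldh1l1 and S100b), with 0, 3 and 1 above it. The 4 of the oligodendrocyte lineage summed to 107.1, 763.8 and 114.8 (Olig2 on each), with 1, 3 and 1 above it. Olig1 and Pdgfra were not well above background on the MGE-GFP+ array. Where these lists were highest, in ES-GFP- cells, Scd1 and most oxidation genes were highest too and Idi1, Cyp51 and Scd2 were lowest, and the part of the lists in those values was not tested. The 5 mesenchyme markers summed to 233, 312 and 16.0, led by Col3a1 on each array, with 1, 4 and 0 above the control range. Col1a1 and Lum were not well above background in the embryo, and Lum was not in ES-GFP- cells.

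Blood signal was highest in the embryo. The 4 erythroid markers with a probe summed to 105 in ES-GFP+, 75.9 in ES-GFP- and 1070 in MGE-GFP+ cells, of which Hba-a1 made 86.5, 63.8 and 1040. The 4 endothelial markers summed to 56.1, 50.7 and 97.8, led by Pecam1, Kdr and Kdr, with 0, 1 and 1 above the control range. Cdh5, which defines endothelium, was not well above background on any array. The 4 microglial markers summed to 122, 69.5 and 118, led by Csf1r, with 1, 1 and 2 above the control range. The part of these cells in the embryonic Abcg1 and Idi1 levels was not tested. The 5 pan-neuronal markers summed to 30800, 24400 and 37900, the largest part being the signal of Snap25. The 4 pluripotency markers summed to 31000, 30400 and 39100, nearly all of it signal of Nanog, which read 30900, 29800 and 39100. That sum therefore does not track the other 3, which were highest in culture. Nanog signal was highest in the embryo, where the other 3 were in the control range, so what its probe reads is uncertain. Pou5f1 read 25.7 in ES-GFP+, 72.6 in ES-GFP- and 10.3 in MGE-GFP+ cells, Zfp42 38.5, 27.9 and 4.80, and Dppa5a 24.8, 561 and 6.81. These 3 were above the control range on the ES-GFP- array and within it on the other arrays, and their part in the ES-GFP- values of the 32 genes was not tested.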

How the data were processed

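Total RNA of 3 FACS-sorted populations was hybridised to 1 one-color Agilent array each. The authors amplified and Cy3-labeled the RNA. The paper describes whole transcriptome amplification and an 8×60K format, whereas the labels give a low-input linear amplification kit and a smaller format. The deposited scanner files hold spot intensity on a linear scale, background-subtracted and detrended by Feature Extraction (10.7.3.1 in the file headers) and not scaled between arrays. The authors also deposited log2 values, of unstated scale. Each column was within 0.212 of the log2 median spot intensity after quantile normalization across the 3 arrays, and these values served as an alternative. The medians of the columns were 7.69, 7.68 and 7.69.

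Outlier spots (135, 137 and 98 on the ES-GFP+, ES-GFP- and MGE-GFP+ arrays) were left out, 0 spots were saturated, repeat spots were averaged, and the array's 75th percentile (intensities 746.8, 843.3 and 575.9) was subtracted from log2 intensity. Probes not well above background were raised to the lowest value among those that were. A gene is the mean of its probes. RefSeq accessions named 26582 of 55681 probes. The SD of repeat spots on an array was 0.139, 0.141 and 0.144, from 358, 324 and 305 probes, and 1 array per population limits the precision. With 1 array per population, a call was a difference of at least 2-fold and no test was made. All 32 genes are named. In each surrounding list the 2 highest and 2 lowest genes in ES-GFP+ against MGE-GFP+ cells above the control range are named. A gene of these lists and one of the marker lists are not reported here. The genes and lists were chosen with earlier results of these arrays known. Alternatives were another percentile, quantile and cyclic loess normalization, normexp background (limma 3.58.1 in R 4.3.3), no background subtraction, the deposited log2 values, no filter on dim probes, a floor at the control probes, the brightest probe, outlier spots kept, and thresholds of 1.5-fold and 3-fold. The calculation was tested on simulated data. Python 3.11.15, pandas 2.3.3 and numpy 2.4.6 were used.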

Additional observations from a re-analysis of the deposited data

Results flagged for a closer look

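Abca1, which moves cholesterol out of cells, differed from the embryo in opposite directions in the 2 culture populations. Its log2 difference from MGE-GFP+ cells was -1.21 in ES-GFP+ cells and 0.491 in ES-GFP- cells. Each value compares 1 array with 1 array, both use the same embryo array, and the difference between them was not tested. The ES-GFP+ level, 25.9, was within the range of the control probes on that array, where that range is widest, and with levels raised to the control range the first value was -0.25, within 2 SD of repeat spots.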

How the results depend on the processing

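Scaling to the 50th percentile lowered every culture difference, and all genes with it. The median of the 32 genes became -0.572 in ES-GFP+ against MGE-GFP+, -0.342 in ES-GFP- against MGE-GFP+ and -0.282 in ES-GFP+ against ES-GFP- cells, beside all-gene medians of -0.398, -0.253 and -0.179. The genes at least 2-fold higher then numbered 0, 1 and 0. In ES-GFP+ against MGE-GFP+ cells it also reversed Pmvk (-0.261), Fdft1 (-0.116), Tm7sf2 (-0.292), Dhcr7 (-0.342) and Scap (-0.303), the 5 values of 42 past 2 SD that changed sign under any of the 10 alternatives. Genes higher in ES-GFP- than in MGE-GFP+ cells numbered 1 with normexp background and 1 at 3-fold. Genes higher in ES-GFP+ than in ES-GFP- cells numbered 1 with quantile normalization, 1 with cyclic loess, 1 with normexp, 1 without background subtraction, 1 with the deposited log2 values, 5 at 1.5-fold and 0 at 3-fold. Genes higher in ES-GFP+ than in MGE-GFP+ cells numbered 5 at 1.5-fold and 0 at 3-fold. Genes at least 2-fold lower numbered 1 to 8, 2 to 7 and 0 to 3 in the 3 comparisons. Apart from the shift by scaling, the cause of these moves was not tested. Naming probes by a gene name column was not run, as the files used here hold none, and normexp used the median spot signal. Signal over background limits the comparisons of dim genes on the ES-GFP+ array, where 86 of the 106 control probes were well above background, against 34 on each of the other arrays. No paired analysis was possible because there was 1 array per population.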

Other observations

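Of the oxysterol and bile acid side-chain enzymes, Cyp46a1 and Cyp39a1 were higher in both culture populations than in the embryo. Cyp46a1, the cholesterol hydroxylase of neurons, read 81.5 in ES-GFP+, 37.0 in ES-GFP- and 13.3 in MGE-GFP+ cells, and Cyp39a1, an oxysterol hydroxylase, 126, 59.6 and 22.2. The embryo levels of both were within the control range, and both differences were positive under every alternative. The ES-GFP+ levels were 2.20-fold and 2.11-fold above those of ES-GFP- cells, and no fold is given against the embryo. Of the 6 genes listed, 4, 3 and 4 had a value in the 3 comparisons, 3 (Cyp46a1, Cyp39a1 and Ch25h), 2 (Cyp46a1 and Cyp39a1) and 3 (Cyp46a1, Cyp39a1 and Ch25h) were at least 2-fold higher in the first population, where 32.2%, 17.2% and 24.0% of all genes were. Ch25h was within the control range on the ES-GFP+ array and not well above background on the others, so its differences are bounds. Hsd3b7, a sterol dehydrogenase of bile acid synthesis, read 27.3, 29.4 and 26.4.

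Of 17 phospholipid and sphingolipid synthesis genes, 2 were at least 2-fold higher and 0 lower in ES-GFP+ than in MGE-GFP+ cells (Pisd and Sgms1), and 4 were higher (Pisd, Sgms1, Degs1 and Cers2) and 2 lower (Sptlc1 and Cers6) in ES-GFP- cells, the embryo level of Cers2 being in the control range, with medians of 0.05 and -0.20. Over all genes 32.2% were higher and 5.48% lower in the first comparison and 17.2% and 9.9% in the second. Pisd, which makes phosphatidylethanolamine in mitochondria, read 693, 535 and 99.5, 6.96-fold and 5.38-fold above the embryo. Mouse Pisd has related pseudogene copies that its probes may also read, and the strains differ, so its value is uncertain. Sgms1, a sphingomyelin synthase, read 58.1, 72.5 and 17.9, with the embryo level in the control range. Pcyt1a, of phosphatidylcholine synthesis, read 30.9, 42.9 and 43.7, the first within the control range, and Cers5, a ceramide synthase, 410, 450 and 546.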
